A study of Mus musculus with 23 samples.

Results

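The 34 genes described here repair DNA crosslinks. They were chosen by name from the Fanconi anaemia pathway, nucleotide excision repair, and the nucleases, bypass polymerases and recombination factors that work with them. The rule held no measured value, but the members were chosen with earlier results of these data known. All 34 were found by gene symbol in each of 3 count tables, among 20628 genes measured in tibialis anterior muscle, 26702 in subcutaneous white fat and 25623 in hypothalamus. RNA sequencing was done on 23 libraries from C57BL/6 mice, an inbred strain, treated with vehicle or with oxaliplatin at 10 mg/kg, and the treatment lasted 8 weeks. Muscle had 5 oxaliplatin and 4 vehicle libraries, and fat and hypothalamus each had 4 oxaliplatin and 3 vehicle libraries. Libraries are named here by tissue, arm and the mouse number in their titles, and their values are listed in order of mouse number (oxaliplatin mice 1 to 5 and vehicle mice 1 to 4 in muscle, oxaliplatin mice 2 to 5 and vehicle mice 1, 2 and 4 in the other tissues). Within a tissue each library came from a differently numbered mouse of its arm, and p-values measure the spread between these libraries. The same numbers recur between tissues, and the main fits over 2 tissues treat those libraries as independent.

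Oxaliplatin is a platinum drug that binds DNA bases and joins neighbouring bases of 1 strand or, less often, the opposite strands. Nucleotide excision repair cuts out the stretch that carries a lesion within a strand, and its transcription-coupled branch is called in by a stalled RNA polymerase. A crosslink between strands blocks replication, and there the Fanconi anaemia core complex attaches ubiquitin to a clamp made of FANCI and FANCD2, nucleases cut the crosslink loose on 1 strand, bypass polymerases copy past the remnant, and homologous recombination rebuilds the broken strand. Many of the Fanconi and recombination genes are transcribed mainly in dividing cells, and most cells of adult muscle, fat and brain do not divide.

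Promoters are shown for Rad51c, Xrcc3 and Ercc6, which were among the 4 members of smallest p in fat. The RefSeq windows (GRCm38.p6) are 300 bases long, lie mostly upstream of the annotated start and run 50 bases into the gene, and 29 of the 34 members had an entry. Capitals mark matches on either strand to the GC box (GGGCGG), the CCAAT box (searched as spelled), the E2F element (TTCCCGC) and the E-box (CACGTG). The Rad51c window lies at chr11:87404905-87405204 on the minus strand, that of Xrcc3 at chr12:111813830-111814129 on the minus strand, and that of Ercc6 at chr14:32513271-32513570 on the plus strand.
Rad51c: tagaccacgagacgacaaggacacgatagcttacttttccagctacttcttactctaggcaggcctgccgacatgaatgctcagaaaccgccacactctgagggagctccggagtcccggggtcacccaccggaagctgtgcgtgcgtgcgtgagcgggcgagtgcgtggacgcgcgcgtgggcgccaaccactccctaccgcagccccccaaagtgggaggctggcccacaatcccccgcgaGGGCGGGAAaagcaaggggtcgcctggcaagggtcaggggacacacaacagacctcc
Xrcc3: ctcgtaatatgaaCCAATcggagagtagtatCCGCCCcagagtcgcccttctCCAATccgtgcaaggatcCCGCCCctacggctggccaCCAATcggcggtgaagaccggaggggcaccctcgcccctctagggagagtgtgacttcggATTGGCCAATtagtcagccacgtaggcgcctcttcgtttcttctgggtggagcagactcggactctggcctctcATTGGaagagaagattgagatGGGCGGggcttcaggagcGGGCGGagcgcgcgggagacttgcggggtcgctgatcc
Ercc6: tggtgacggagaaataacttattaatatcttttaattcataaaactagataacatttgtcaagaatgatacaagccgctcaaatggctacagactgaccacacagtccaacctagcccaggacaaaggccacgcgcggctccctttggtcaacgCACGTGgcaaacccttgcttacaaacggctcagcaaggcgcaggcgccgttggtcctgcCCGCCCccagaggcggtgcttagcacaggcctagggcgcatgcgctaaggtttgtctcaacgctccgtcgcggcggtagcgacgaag

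In the Rad51c window, 1 GC box and 1 E2F element overlapped each other. The Xrcc3 window held 4 GC boxes and 6 CCAAT boxes, and the Ercc6 window held 1 GC box and 1 E-box. Of the 29 members with an entry, 16 had a GC box in any of their windows, against 35.7% of all 32851 single windows of the table. For the CCAAT box these were 17 of 29 members and 37.4% of windows. An E2F element was found in 8 of 29 members against 4.60% of windows, and an E-box in 5 of 29 members against 7.15% of windows. A member can have several windows, as Rad51c has 2, so shares of members and of single windows are not like for like. The members with an E2F element were Brca2, Ercc5, Fancb, Fancg, Fanci, Fancm, Rad51c and Ube2t. These matches describe letters in a window and do not show that a factor binds there.

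Library totals were 22.4 to 32.2 M counts in muscle, 16.5 to 22.7 M in fat and 23.6 to 28.5 M in hypothalamus. The summed CPM (counts scaled to library size) of 8 myofibre markers was 137078 to 181524 in muscle, that of 8 adipocyte markers 4528 to 14937 in fat against 196 to 286 in muscle and 14.1 to 19.5 in hypothalamus, and that of neuron markers 2135 to 2940 in hypothalamus against 3.62 to 7.94 in fat and 3.11 to 7.72 in muscle. For mouse 5 of the muscle oxaliplatin arm the title and the treatment label disagree, the label naming vehicle, and the title was followed. Of 2 fat libraries that stood apart, vehicle mouse 4 had 68961 CPM of the 8 myofibre markers against 8.14 to 936 in the other fat libraries, and oxaliplatin mouse 5 had 308 CPM of the 9 lymphocyte markers against 16.7 to 93.6 in the other oxaliplatin and 39.9 to 67.0 in the vehicle libraries. Cdkn1a, the p53 target that stops the cell cycle, averaged 6.79 CPM with vehicle and 64.6 with oxaliplatin in muscle, 13.2 and 164 in fat, and 6.62 and 45.6 in hypothalamus. Its adjusted p by edgeR was 0.0526 in muscle, 0.0751 in fat and 0.285 in hypothalamus.

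In the vehicle libraries the levels of the members spanned a wide range within most roles. Levels are compared between genes as CPM per kilobase of exon, with CPM divided by library factors. Ercc3, a helicase of the transcription factor TFIIH that opens DNA around a lesion, was the highest member in fat at 9.36 ± 0.256 (SD, n = 3) and in hypothalamus at 10.8 ± 0.302 (SD, n = 3). Usp1, the deubiquitinase that resets the clamp, followed in fat at 7.55 ± 1.13 (SD, n = 3), and Rev1, a bypass polymerase, followed in hypothalamus at 5.71 ± 0.264 (SD, n = 3). In muscle the highest was Ercc1, a subunit of the nuclease that cuts beside a lesion, at 6.14 ± 0.736 (SD, n = 4), ahead of Mus81, a structure-specific nuclease, at 4.38 ± 0.616 (SD, n = 4).

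At the other end of the order stood Fanci in muscle at 0.0146 ± 0.0171 (SD, n = 4), Rad51c in fat at 0.0629 ± 0.0370 (SD, n = 3) and Brip1 in hypothalamus at 0.0287 ± 0.00463 (SD, n = 3), all as CPM per kilobase. FANCI is a subunit of the clamp, RAD51C a recombination factor, and BRIP1 a helicase bound to BRCA1. The median member had 0.385 CPM per kilobase in muscle, 1.83 in fat and 1.51 in hypothalamus. Below 0.2 CPM per kilobase lay 11 members in muscle, 7 in hypothalamus and 6 in fat, and Fanca, Fancd2 and Eme1 were among them in each tissue. Roles did not split the order cleanly. Ercc3, Ercc2, Ercc5 and Xpa, of excision repair, held ranks 1, 6, 9 and 10 in fat and 1, 3, 11 and 13 in hypothalamus. The recombination factors held ranks between 11 and 34 in fat and between 7 and 34 in hypothalamus. Fance, a core complex subunit, was the member of rank 4 in fat at 5.52 ± 0.197 (SD, n = 3) and of rank 8 in hypothalamus at 3.88 ± 0.0437 (SD, n = 3). Muscle libraries were made with another kit than the rest, so the tissue and the kit cannot be told apart in those levels.

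Neighbours in the order of levels differed by more than their summed SD in 2 of 33 steps in muscle, 6 in fat and 10 in hypothalamus, so most neighbours could not be told apart. Across the 34 members the ranks of fat and hypothalamus had a Spearman correlation of 0.93, against 0.71 for muscle and fat and 0.65 for muscle and hypothalamus. These are correlations across genes that share libraries and gene lengths, given as a description.

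**Figure D1:**
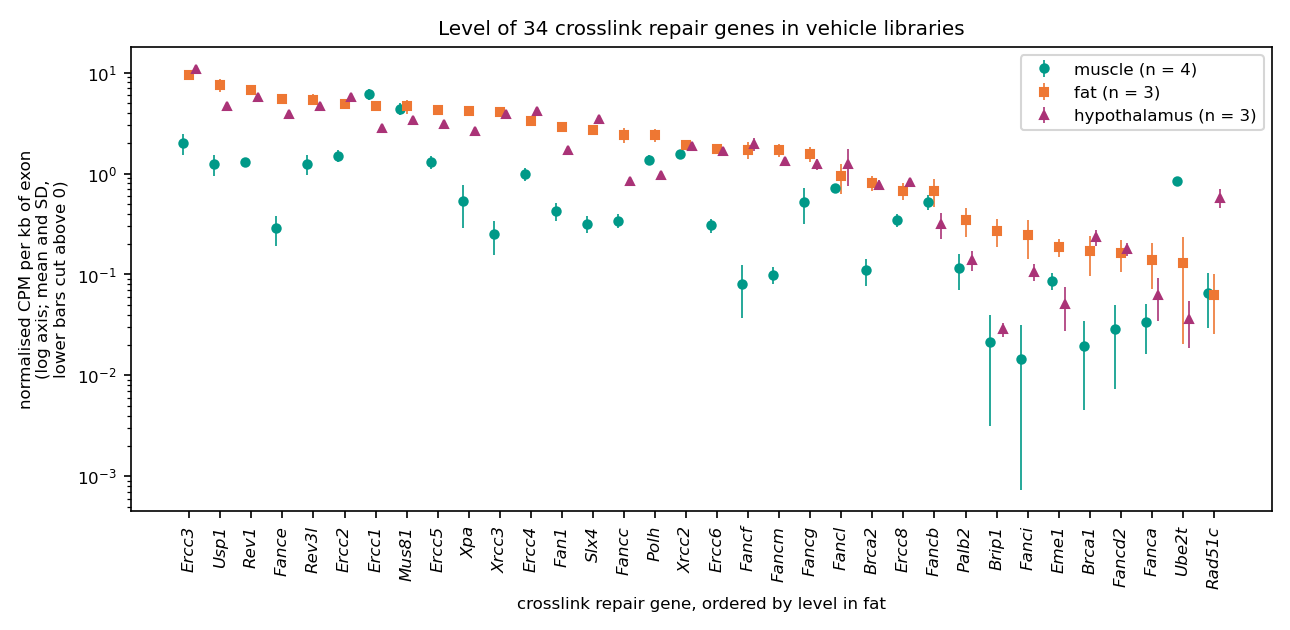
Mean level of each of the 34 genes in vehicle libraries of muscle (n = 4), fat (n = 3) and hypothalamus (n = 3), as normalised CPM per kilobase of exon on a log axis, with SD as bars. Ercc3 is at 9.36 in fat and 10.8 in hypothalamus, and Rad51c is the lowest member in fat at 0.0629.

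The first question was whether any of these genes changed with oxaliplatin within a tissue. No member passed the threshold, an adjusted p of 0.05 by edgeR over all tested genes, in any of the 3 tissues. The members nearest to it were in fat, where Xrcc3, Rad51c, Fancd2 and Ercc6 were higher in every oxaliplatin library than in any vehicle library. Of all genes in fat, 10.3% were likewise higher in every oxaliplatin library. Rad51c had few counts and was tested there only through the oxaliplatin arm, where it is high. In muscle 26 members had enough counts to be tested and 0 were called, where 24 of 14737 genes (0.163%) were called. In fat 33 were tested and 0 were called, where 0 of 19870 genes (0%) were called. In hypothalamus 31 were tested and 0 were called, where 28 of 18941 genes (0.148%) were called. DESeq2 called 0 members in muscle, where it called 1.72% of all genes, and 0 in hypothalamus, where it called 1.38%. Limma-voom called 0 members in both, beside 0.0882% and 0.0581% of all genes. Within fat limma-voom called 0 members and 0% of all genes. DESeq2 called 4 of 33 members there (12.1%), beside 12.2% of all genes.

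At an unadjusted p under 0.05, edgeR had 1 member higher and 0 lower with oxaliplatin in muscle, where 4.80% of all genes were higher and 4.79% lower. In hypothalamus it had 1 higher and 0 lower, where 6.20% were higher and 4.00% lower. In fat it had 5 higher and 1 lower of 33, where 13.4% of all genes were higher and 12.7% lower. The members' log2 fold change was above 0 for 14 of 26 in muscle, 21 of 33 in fat and 15 of 31 in hypothalamus, where 47.8%, 52.4% and 52.0% of all genes were above 0. Their median log2 fold change was 0.03 in muscle, 0.17 in fat and -0.00055 in hypothalamus, beside -0.01, 0.03 and 0.01 over all genes tested.

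Libraries of the arms did not overlap for 1 member in muscle (Ercc1, higher), for 7 in fat (Fancd2, Rad51c, Xrcc3, Ercc2, Ercc5 and Ercc6 higher, Xrcc2 lower) and for 3 in hypothalamus (Usp1, Ercc4 and Xpa, higher). Of all genes, 2.18% were apart and higher in muscle and 1.70% lower, 10.3% and 11.2% in fat, and 5.58% and 4.35% in hypothalamus. The 95% interval of the log2 fold change lay within 1 unit of 0, that is within a 2-fold change, for 24 of 26 members in muscle, 22 of 33 in fat and 27 of 31 in hypothalamus. Over all genes this held for 11181 of 14737, 9929 of 19870 and 14139 of 18941.

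**Figure D2:**
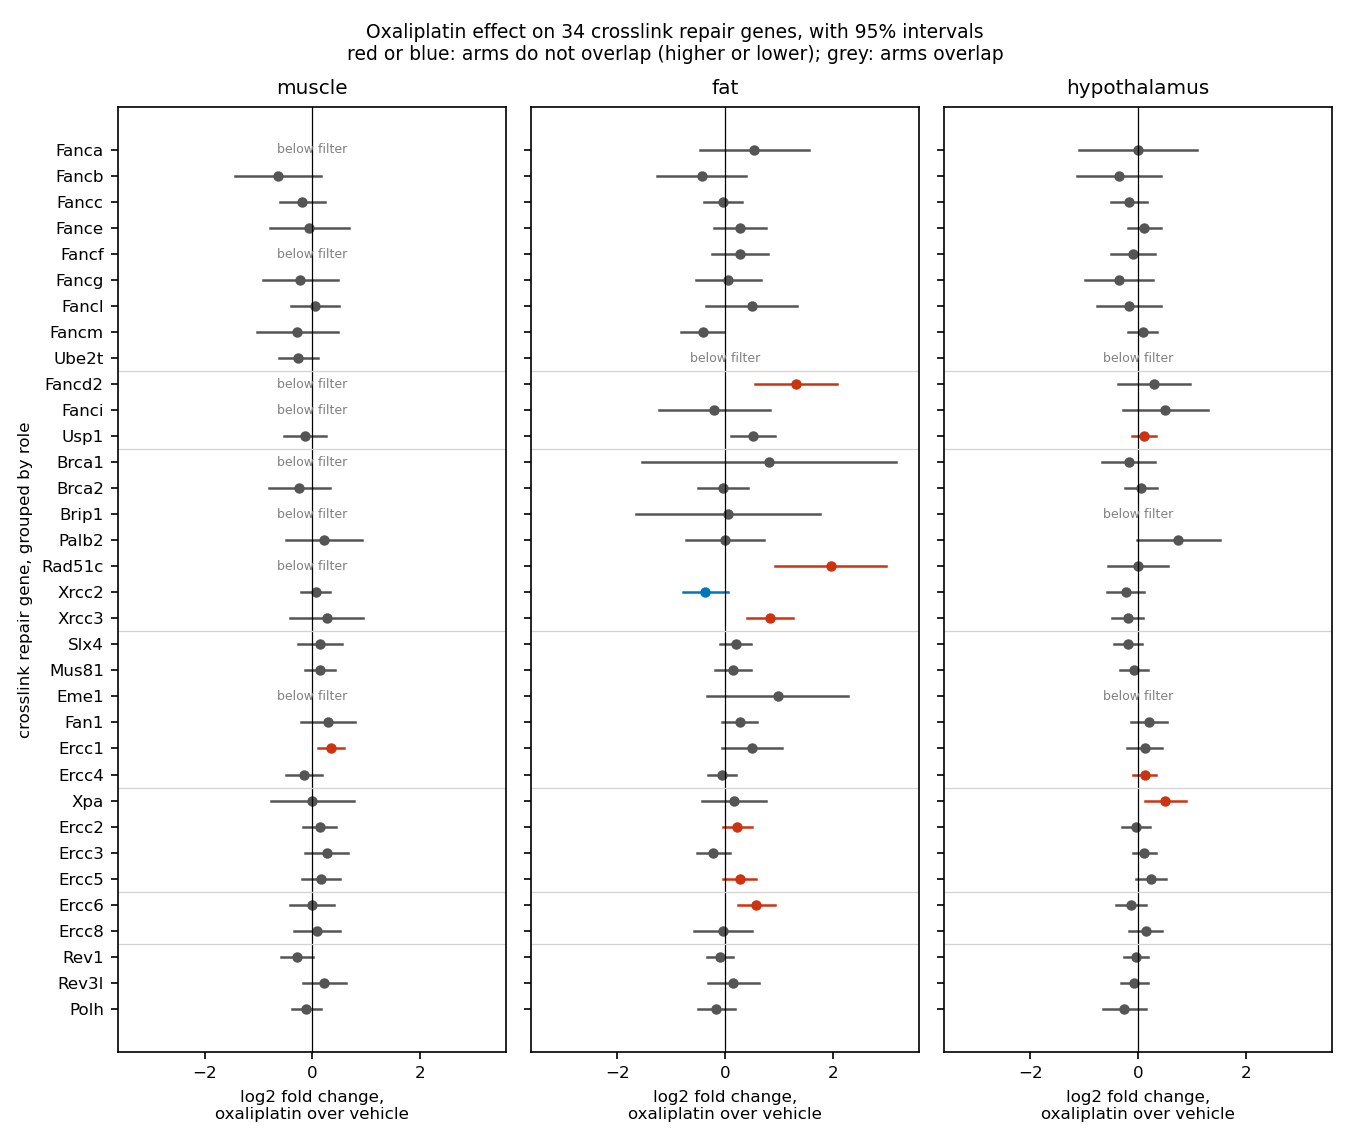
Log2 fold change of each of the 34 genes, oxaliplatin over vehicle, in muscle, fat and hypothalamus, with 95% intervals from edgeR. Members are grouped by role, coloured points have arms that do not overlap, and members with too few counts for the test are marked, 8 in muscle, 1 in fat and 3 in hypothalamus.

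Within the core complex, 7 of 9 members were tested in muscle and 8 each in fat and hypothalamus, and 0 were called by edgeR, with 1 at an unadjusted p under 0.05, Fancm in fat. FANCM is the helicase-like factor that anchors the complex on DNA. In fat it measured 12.4, 11.04, 14.2 and 15.6 CPM with oxaliplatin and 19.5, 18.9 and 14.8 with vehicle. The arms overlapped through vehicle mouse 4 and oxaliplatin mouse 5, and its log2 fold change was -0.41 ± 0.17 (SE, edgeR adjusted p = 0.180). In muscle Fancm was at -0.28 and in hypothalamus at 0.09 on the log2 scale.

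Fancb, a core scaffold subunit encoded on the X chromosome, measured 1.02, 0.873, 2.001, 0.821 and 0.416 CPM with oxaliplatin in muscle and 1.93, 1.30, 1.502 and 1.53 with vehicle. One oxaliplatin library was above all others and the arms overlapped, at a log2 fold change of -0.64 ± 0.37 (SE, edgeR adjusted p = 0.650) from counts of 14 to 54. Ube2t, the enzyme that hands ubiquitin to the FANCL ligase, measured 2.89, 2.94, 4.05, 3.92 and 3.15 CPM with oxaliplatin in muscle and 4.35, 4.11, 3.599 and 4.13 with vehicle, and the arms overlapped. Its log2 fold change was -0.26 ± 0.17 (SE, edgeR adjusted p = 0.706). Ube2t was too low for the test in fat and hypothalamus, and Fanca and Fancf in muscle. The remaining tested core members, Fancc, Fance, Fancg and Fancl in each tissue and Fanca and Fancf in fat and hypothalamus, lay between -0.36 and 0.54 on the log2 scale, and Fancb was at -0.44 in fat and -0.35 in hypothalamus, with no arms apart among them.

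The clamp and its deubiquitinase gave 2 members at an unadjusted p under 0.05 in fat, Fancd2 and Usp1. FANCD2 is the clamp subunit whose ubiquitination marks an activated pathway. Fancd2 (chromosome 6, 113531682 to 113597017, plus strand, GRCm38) measured 3.46, 2.36, 4.23 and 2.88 CPM with oxaliplatin in fat and 1.80, 1.16 and 0.936 with vehicle. Every oxaliplatin library was above every vehicle library, with means of 3.23 ± 0.803 (SD, n = 4) and 1.30 ± 0.451 (SD, n = 3). The log2 fold change was 1.32 ± 0.33 (SE, edgeR adjusted p = 0.114).

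Usp1 measured 47.5, 44.0, 37.7 and 31.9 CPM with oxaliplatin in fat and 32.8, 27.1 and 24.6 with vehicle. The arms overlapped by 1 library each, at a log2 fold change of 0.51 ± 0.17 (SE, edgeR adjusted p = 0.141). In hypothalamus Usp1 measured 21.4, 18.1, 18.1 and 18.2 CPM with oxaliplatin against 17.6 in each of 3 vehicle libraries, so the arms were apart by a small step and the log2 fold change was 0.11 ± 0.10 (SE, edgeR adjusted p = 0.729). Fanci, the other clamp subunit, was at -0.20 in fat and 0.51 in hypothalamus on the log2 scale, with overlapping arms. In muscle Fancd2 had 0 to 14 counts and Fanci 0 to 8 counts per library, both too few to test, and a count of 0 there allowed up to 0.0984 to 0.123 CPM. Usp1 in muscle was at -0.14 ± 0.18 (SE, edgeR adjusted p = 0.902).

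The recombination factors held the members of smallest p in fat, Xrcc3 and Rad51c, both of which act in homologous recombination. Xrcc3 (chromosome 12, 111803192 to 111813873, minus strand, GRCm38) measured 22.0, 22.1, 21.5 and 15.1 CPM with oxaliplatin in fat and 12.9, 10.4 and 10.6 with vehicle. The arms were apart, and oxaliplatin mouse 5 was the nearest to vehicle. Means were 20.2 ± 3.42 (SD, n = 4) and 11.3 ± 1.37 (SD, n = 3), and the log2 fold change was 0.84 ± 0.18 (SE, edgeR adjusted p = 0.114). Klc1, a kinesin gene whose exons overlap Xrcc3 on the other strand, was at 0.07 ± 0.10 (SE) on the log2 scale in the same libraries. Its reads and those of Xrcc3 cannot be told apart in the shared exons, since no source used here states the strand setting of the counts.

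Rad51c (chromosome 11, 87376645 to 87404954, minus strand, GRCm38) measured 1.35, 1.21, 0.769 and 1.06 CPM with oxaliplatin in fat and 0.2003, 0.462 and 0.165 with vehicle. These values rest on 16 to 25 counts per oxaliplatin library and 3, 8 and 3 counts in the vehicle libraries, under the filter's minimum of 10, so Rad51c was tested in fat only through the oxaliplatin arm, where it is high. The arms were apart, at a log2 fold change of 1.96 ± 0.44 (SE, edgeR adjusted p = 0.114). In hypothalamus, where Rad51c was more abundant, it was at 0.0022 ± 0.25 (SE, edgeR adjusted p = 0.998), and in muscle it had 3 to 24 counts per library and was not tested.

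Xrcc2, a further recombination factor, went the other way in fat with arms apart, at 7.90, 6.09, 7.74 and 9.17 CPM with oxaliplatin and 11.01, 9.24 and 9.63 with vehicle. Its log2 fold change was -0.37 ± 0.18 (SE, edgeR adjusted p = 0.232). In hypothalamus Xrcc2 measured 7.77, 8.43, 6.80 and 10.1 CPM with oxaliplatin against 9.99, 9.93 and 9.27, overlapping through 1 oxaliplatin library, at -0.23 ± 0.15 (SE, edgeR adjusted p = 0.618). Xrcc3 measured 8.86, 10.4, 8.57 and 9.67 CPM there against 11.6, 10.8 and 9.78, at -0.19 ± 0.13 (SE, edgeR adjusted p = 0.622), also with overlap. In muscle Xrcc2 was at 0.07 and Xrcc3 at 0.27 on the log2 scale, with overlapping arms.

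Palb2, the bridge between BRCA1 and BRCA2, measured 1.29, 1.73, 2.69 and 1.19 CPM with oxaliplatin in hypothalamus and 1.23, 1.08 and 0.775 with vehicle. Only oxaliplatin mouse 5 was below the highest vehicle library, and the log2 fold change was 0.74 ± 0.35 (SE, edgeR adjusted p = 0.504). In fat Palb2 was at -0.0028 ± 0.31 (SE) and in muscle at 0.22 ± 0.32 (SE) on the log2 scale. Brca2, a central factor of homologous recombination, was at -0.24, -0.04 and 0.05 in muscle, fat and hypothalamus. Brca1 in hypothalamus was at -0.18, and Brca1, Brip1 and Rad51c were below the testing limit in muscle.

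**Figure D3:**
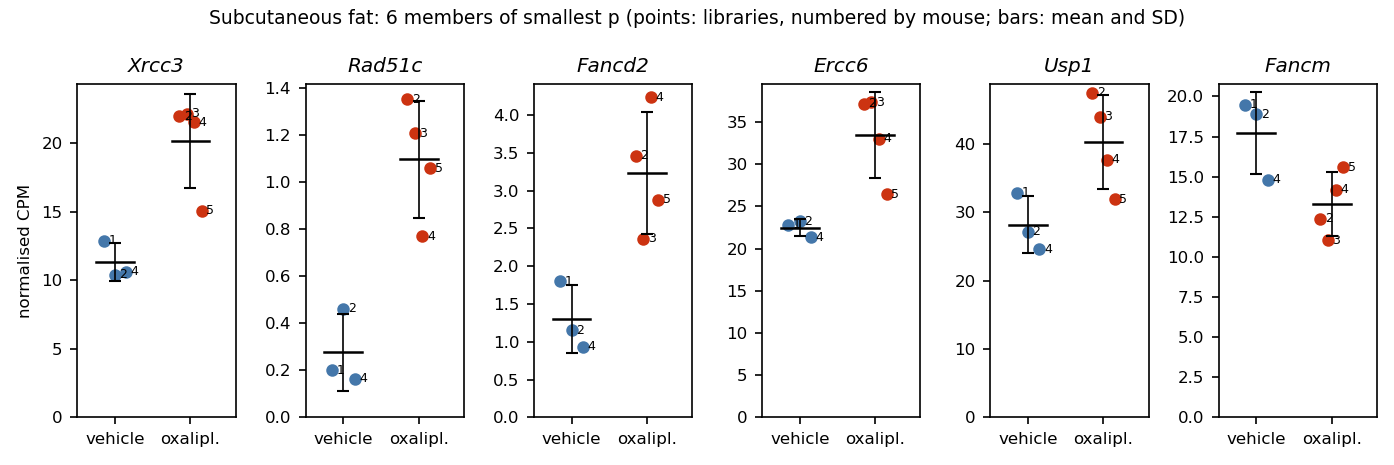
Normalised CPM in each fat library for the 6 members of smallest p, with vehicle libraries in blue, oxaliplatin libraries in red, the mouse number beside each point, and the mean and SD as bars. In Xrcc3, Rad51c, Fancd2 and Ercc6 all 4 oxaliplatin libraries lie above all 3 vehicle libraries, and oxaliplatin mouse 5 is the lowest oxaliplatin library for Xrcc3, Ercc6 and Usp1.

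Among the nucleases that cut a crosslink loose, Ercc1 in muscle had the smallest p. ERCC1 pairs with ERCC4 to cut on 1 side of a lesion and serves both excision and interstrand repair. Ercc1 (chromosome 7, 19344778 to 19356524, plus strand, GRCm38) measured 24.0, 22.5, 25.8, 24.6 and 24.6 CPM with oxaliplatin in muscle and 21.2, 17.6, 20.8 and 16.7 with vehicle. The arms were apart, and the log2 fold change was 0.35 ± 0.11 (SE, edgeR adjusted p = 0.283), with a 95% interval of 0.11 to 0.58. With mouse 5 counted as vehicle it was 0.26 (edgeR unadjusted p = 0.0618, adjusted p = 0.9998), and the arms then overlapped, since that library had 24.6 CPM. Over all alternatives the adjusted p was 0.123 to 0.9998. Cd3eap, which overlaps Ercc1 on the other strand, was at 0.08 ± 0.14 (SE) on the log2 scale in muscle.

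In fat Ercc1 measured 29.0, 22.3, 15.3 and 16.3 CPM with oxaliplatin and 14.4, 13.9 and 15.7 with vehicle. Mice 2 and 3 were high and mouse 4 lay among the vehicle libraries, at a log2 fold change of 0.50 ± 0.24 (SE, edgeR adjusted p = 0.225). In hypothalamus Ercc1 was at 0.12 ± 0.14 (SE, edgeR adjusted p = 0.784). Its partner Ercc4 measured 28.7, 34.1, 30.1 and 28.1 CPM with oxaliplatin in hypothalamus and 27.8, 27.8 and 27.6 with vehicle, apart by a narrow margin, at 0.12 ± 0.09 (SE, edgeR adjusted p = 0.666). Ercc4 was at -0.15 in muscle and -0.06 in fat.

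Fan1, a nuclease that binds the ubiquitinated clamp, measured 3.61, 1.87, 3.30, 3.32 and 3.77 CPM with oxaliplatin in muscle and 2.58, 2.24, 2.17 and 3.31 with vehicle. Oxaliplatin mouse 2 was the lowest of all 9 libraries, and the log2 fold change was 0.30 ± 0.23 (SE, edgeR adjusted p = 0.780). Slx4, the scaffold that holds the nucleases, measured 22.5, 22.8, 19.9 and 27.6 CPM with oxaliplatin in hypothalamus and 26.5, 27.5 and 25.5 with vehicle, at -0.19 ± 0.12 (SE, edgeR adjusted p = 0.590). There oxaliplatin mouse 5 was the highest library and the other 3 oxaliplatin libraries lay below every vehicle library. Mus81 was between -0.08 and 0.15 on the log2 scale in the 3 tissues, and Eme1, its partner, was tested in fat alone. Eme1 had 7, 11 and 8 counts in vehicle fat and 9, 15, 14 and 36 with oxaliplatin. It was thus tested mainly through the oxaliplatin arm.

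All 4 excision repair core members were tested in each tissue, and 0 were called by edgeR, with 1 at an unadjusted p under 0.05, Xpa in hypothalamus. XPA checks the lesion and positions the nucleases. Xpa (chromosome 4, 46155347 to 46196311, minus strand, GRCm38) measured 8.01, 7.24, 7.46 and 5.35 CPM with oxaliplatin in hypothalamus and 4.99, 5.18 and 4.65 with vehicle. Oxaliplatin mouse 5 was close to the vehicle libraries and the other 3 were well above them. The log2 fold change was 0.50 ± 0.17 (SE, edgeR adjusted p = 0.388), and it was 0.17 in fat and 0.0052 in muscle. Ncbp1, which overlaps Xpa on the other strand, was at 0.15 ± 0.10 (SE) in hypothalamus.

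Ercc5, the nuclease that cuts on the far side of a lesion, measured 24.1, 22.2, 22.1 and 17.4 CPM with oxaliplatin in hypothalamus and 18.8, 18.6 and 17.2 with vehicle, at 0.24 ± 0.12 (SE, edgeR adjusted p = 0.545). In fat it measured 34.1, 33.3, 27.4 and 26.7 CPM against 26.4, 25.3 and 23.8, apart, at 0.27 ± 0.13 (SE, edgeR adjusted p = 0.230). In both tissues oxaliplatin mouse 5 was the lowest of its arm. Ercc2, the second helicase of TFIIH, measured 25.6, 26.2, 22.2 and 22.0 CPM with oxaliplatin in fat and 20.8, 20.4 and 20.3 with vehicle, apart, at 0.23 ± 0.12 (SE, edgeR adjusted p = 0.24999). Ercc3 measured 6.53, 8.02, 6.10, 5.75 and 7.84 CPM with oxaliplatin in muscle and 6.48, 6.47, 3.74 and 6.02 with vehicle, overlapping, at 0.27 ± 0.18 (SE, edgeR adjusted p = 0.730). In fat Ercc3 was below 0, at -0.22 ± 0.13 (SE, edgeR adjusted p = 0.312), and in hypothalamus at 0.12, both overlapping. Ercc2 was at -0.04 in hypothalamus and 0.14 in muscle, and Ercc5 at 0.16 in muscle.

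Ercc6, the remodeller that starts transcription-coupled repair at a stalled polymerase, had arms apart in fat. Ercc6 (chromosome 14, 32513521 to 32580990, plus strand, GRCm38) measured 37.2, 37.3, 33.0 and 26.5 CPM with oxaliplatin and 22.8, 23.2 and 21.4 with vehicle. Means were 33.5 ± 5.10 (SD, n = 4) and 22.5 ± 0.984 (SD, n = 3), and the log2 fold change was 0.58 ± 0.15 (SE, edgeR adjusted p = 0.116). It was -0.0015 ± 0.19 (SE) in muscle and -0.13 ± 0.12 (SE) in hypothalamus. Ercc8, which recruits a ubiquitin ligase to the same stalled polymerase, was at 0.09 in muscle, -0.04 in fat and 0.14 in hypothalamus, with overlapping arms.

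None of the 3 bypass polymerases had arms apart in any tissue with the libraries grouped by title. Rev1 measured 5.55, 6.31, 6.65, 6.66 and 7.84 CPM with oxaliplatin in muscle and 8.66, 7.49, 7.44 and 8.54 with vehicle. Only oxaliplatin mouse 5 reached the vehicle range, and the log2 fold change was -0.28 ± 0.13 (SE, edgeR adjusted p = 0.542). Mouse 5 is the library whose treatment label names vehicle. Counted so, the arms were apart, at -0.35 (edgeR unadjusted p = 0.0175, adjusted p = 0.9998). In fat Rev1 was at -0.10 and in hypothalamus at -0.04. Rev3l, the catalytic subunit of polymerase zeta, was at 0.23, 0.15 and -0.07 in muscle, fat and hypothalamus, and Polh, polymerase eta, at -0.11, -0.17 and -0.26, with overlapping arms throughout.

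Fat was the tissue in which the count of called members depended on the tool and on single libraries. Without oxaliplatin mouse 5, edgeR called 5 of 33 members, Ercc6, Fancd2, Rad51c, Usp1 and Xrcc3, which were higher with oxaliplatin, and it called 4969 of 19472 genes (25.5%) in the same fit. DESeq2 on all libraries called 4 members (Ercc6, Fancd2, Rad51c and Xrcc3) and 12.2% of all genes. Limma-voom with quality weights called 6 (these 4, Usp1 and Fancm) and 25.6% of all genes, and a fit over all tissues called 5 (Ercc1, Ercc6, Rad51c, Usp1 and Xrcc3) and 15.7%. Without both vehicle mouse 4 and oxaliplatin mouse 5, a setting added after seeing the data, edgeR called 4 (Brip1, Ercc6, Fancm and Xrcc3) and 20.1% of all genes. Fancm was lower with oxaliplatin there, as it was with quality weights. Brip1 was lower too, at 1.14, 1.10 and 0.721 CPM against 2.20 and 2.54 with vehicle. Over all fat libraries its log2 fold change was 0.05. In each of these settings the share of tested members called was near or below that of all genes, at 12.1% with DESeq2, 18.2% with quality weights, 14.7% in the fit over all tissues, 15.2% without mouse 5 and 12.1% without both libraries.

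Over the alternatives, the adjusted p of Xrcc3 in fat ranged from 0.00299 to 0.282 and its log2 fold change from 0.77 to 1.05. For Rad51c these ranges were 0.00967 to 0.282 and 1.69 to 2.54, for Fancd2 0.0104 to 0.274 and 1.15 to 1.87, and for Ercc6 0.00628 to 0.282 and 0.53 to 0.67. The direction of all 6 members of smallest p in fat held in every alternative run.

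For adipocyte and fibroblast markers in fat, oxaliplatin mice 2, 3 and 4 lay below the vehicle libraries and oxaliplatin mouse 5 did not. The 8 adipocyte markers summed to 4528 to 5073 CPM in oxaliplatin mice 2, 3 and 4, 10626 in oxaliplatin mouse 5 and 10519.5 to 14937 with vehicle, and the 6 fibroblast markers to 633 to 1068, 9220 and 4946 to 6675 in the same groups, with no marker at 0. The 9 lymphocyte markers are given above, and Cd3g and Ms4a1 were at 0 in oxaliplatin mouse 2. In bulk tissue, fewer cells of a type and less RNA per cell cannot be told apart. The part of these markers in the values of Xrcc3, Rad51c, Fancd2 and Ercc6 was not tested.

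Oxaliplatin mouse 5 also carried the highest level of several recombination genes in fat. Brca1, which begins recombination at a broken end, measured 7.94 CPM there against 0.487, 0.824 and 0.962 in the other oxaliplatin libraries and 2.07, 1.44 and 0.826 with vehicle. Brip1 measured 5.47 CPM there, 1.14, 1.10 and 0.721 in the other oxaliplatin libraries and 2.20, 2.54 and 1.32 with vehicle. Eme1 measured 2.12 CPM there against 0.440 to 0.824 in the other 6 libraries. Ube2t had 1.47 CPM there and 1.21 in vehicle mouse 4, against 0.0541 to 0.462 elsewhere. The log2 fold changes were therefore wide, at 0.81 ± 1.01 (SE) for Brca1 and 0.05 ± 0.73 (SE) for Brip1.

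A list of 28 proliferation and replication genes summed to 458 CPM in that library, 174 to 205 in the other oxaliplatin libraries and 146 to 226 with vehicle. The 9 lymphocyte markers were also highest there, at 308 CPM. Whether dividing or immune cells carried the Brca1 and Brip1 transcripts was not tested. Xrcc3, Ercc6 and Usp1 were instead lowest of their arm in the same library.

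**Figure D4:**
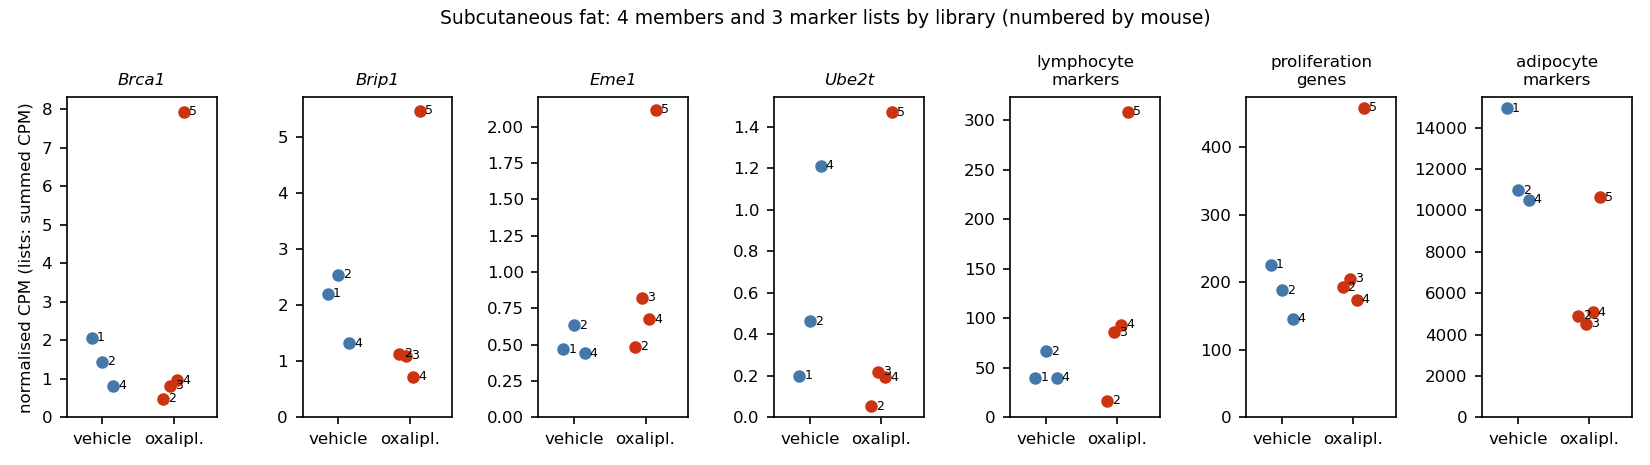
Normalised CPM in each fat library for Brca1, Brip1, Eme1 and Ube2t, beside the summed CPM of lymphocyte markers, proliferation genes and adipocyte markers, with vehicle libraries in blue, oxaliplatin libraries in red and mouse numbers beside the points. Oxaliplatin mouse 5 is the highest library for all but the adipocyte markers, at 7.94 CPM for Brca1 and 308 CPM for the lymphocyte markers.

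In hypothalamus the 7 endothelial markers summed to 280 to 560 CPM with oxaliplatin and 118 to 131 with vehicle, with no marker at 0, and the lowest oxaliplatin library was mouse 5, as for Xpa. In muscle the same 7 markers summed to 180.5 to 205 CPM with oxaliplatin and 121 to 156 with vehicle, apart as for Ercc1. All 6 fibroblast markers were below 0 on the log2 scale in muscle, 3 of them at an unadjusted p under 0.05 by edgeR, with summed CPM of 370 to 741 with oxaliplatin and 481 to 1557 with vehicle. In hypothalamus 5 of 6 astrocyte markers were below 0, 3 of them at an unadjusted p under 0.05 by edgeR. The remaining marker was above 0, at 0.39, also at an unadjusted p under 0.05. Summed CPM of the 6 was 2684 to 4125 with oxaliplatin and 3663 to 4065 with vehicle. The part of these markers in the Xpa and Ercc1 values was not tested. Summed over the 34 members, CPM in muscle was 137 to 154 with oxaliplatin and 129.7 to 145 with vehicle. It was 493.1 to 579 against 458 to 479 in fat and 382 to 410.4 against 383 to 412 in hypothalamus. The arms were apart in fat and overlapped in the other tissues. Such a sum weighs abundant members most, for example Rev3l at 63.5 to 109.8 CPM in fat. Of all genes in fat, 10.3% were apart and higher.

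Whether the oxaliplatin effect differed between tissues was tested in fits over the libraries of 2 tissues. For fat minus hypothalamus, 0 of 34 members were called by edgeR, where 0.311% of all genes were called, and 5 had an unadjusted p under 0.05, where 19.7% of all genes did. The difference in log2 fold change was 1.03 ± 0.21 (SE, edgeR adjusted p = 0.0546) for Xrcc3, 1.95 ± 0.50 (SE, edgeR adjusted p = 0.0842) for Rad51c and 0.70 ± 0.19 (SE, edgeR adjusted p = 0.102) for Ercc6. Fancd2 was at 1.04, Fancm at -0.50 and Slx4, just past an unadjusted p of 0.05, at 0.39, with adjusted p-values of 0.223 to 0.257. Each difference is that of the fold changes given above and rests on the same libraries. DESeq2 called 3 members, Ercc6, Rad51c and Xrcc3, that is 8.82% of members beside 6.09% of all genes. Without fat oxaliplatin mouse 5, edgeR called the same 3 and 15.2% of all genes, and limma-voom with the mouse as a random effect called Xrcc3 and 1.26% of all genes.

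For fat minus muscle, 0 of 34 members were called by edgeR, where 0.239% of all genes were called, and 3 had an unadjusted p under 0.05 (Usp1, Ercc6 and Fancd2), where 17.0% of all genes did. The difference was 0.68 ± 0.27 (SE, edgeR adjusted p = 0.207) for Usp1 and 0.60 ± 0.25 (SE, edgeR adjusted p = 0.226) for Ercc6. That of Fancd2 was 2.57 ± 1.08 (SE), from the few muscle counts given above. For muscle minus hypothalamus, 0 of 32 members were called, where 0.0689% of all genes were, and 0 had an unadjusted p under 0.05, where 9.33% of all genes did. The smallest p-values were those of Ube2t at -0.92 ± 0.44 (SE) and Xrcc2 at 0.34 ± 0.20 (SE). Ube2t had 3 to 10 counts per hypothalamus library and entered this fit only through muscle, where it is high. DESeq2 and limma-voom with the mouse as a random effect called 0 members in either comparison with muscle. DESeq2 called 4.26% of all genes for fat minus muscle and 1.12% for muscle minus hypothalamus, and limma-voom 0.0742% and 0.0804%. Kit and tissue cannot be told apart in the comparisons with muscle.

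Between vehicle fat and vehicle hypothalamus, which shared a kit, 15 of 32 tested members passed the edgeR threshold, where 71.7% of all genes did. Of these 10 were higher in fat, where 37.5% of all genes were, and 5 were lower, where 34.2% were. Brip1 was higher in fat by 3.01 ± 0.38 (SE, edgeR adjusted p = 0.000229), with means of 1.81 ± 0.535 (SD, n = 3) and 0.220 ± 0.0352 (SD, n = 3) CPM. Fancc, a core complex subunit, was higher in fat by 1.32 ± 0.14 (SE, edgeR adjusted p = 0.000104), and Polh by 1.13 ± 0.16 (SE, edgeR adjusted p = 0.000454). Palb2 was higher by 1.08 ± 0.33 (SE, edgeR adjusted p = 0.0197), and Fan1 by 0.57 ± 0.11 (SE, edgeR adjusted p = 0.00226). The other 5 were Ercc1, Xpa, Usp1, Fance and Ercc5. Over 11 alternatives the call was missing in 9 for Ercc5, 8 for Fance, 5 for Xpa and 4 for Palb2, and in 0 for each of the other 11 called members. Xpa, Fance and Ercc5 were each lost with the mouse number as a block and without vehicle mouse 1, 2 or 4 of hypothalamus, and Fance and Ercc5 with DESeq2.

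Rad51c was lower in fat, at -3.35 ± 0.42 (SE, edgeR adjusted p = 0.000222), with means of 0.247 ± 0.144 (SD, n = 3) and 2.59 ± 0.537 (SD, n = 3) CPM. Slx4 was at -0.55 ± 0.11 (SE), Ercc4 at -0.52 ± 0.09 (SE), Ercc2 at -0.40 ± 0.10 (SE) and Ercc3 at -0.39 ± 0.09 (SE), with edgeR adjusted p-values of 0.00132 to 0.00829. Brip1 had 5 to 8 counts per hypothalamus library and Rad51c 3, 8 and 3 counts in vehicle fat, so each was tested through the tissue where it is high. The call of Palb2 was lost without any 1 of 4 libraries (fat vehicle mice 1 and 2, hypothalamus vehicle mice 2 and 4), with adjusted p-values of 0.0527 to 0.0785 by edgeR. Leaving out vehicle mouse 4 of fat, the library with myofibre markers, gave 18 called members of 33 (54.5%), where 72.7% of all genes were called.

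**Figure D5:**
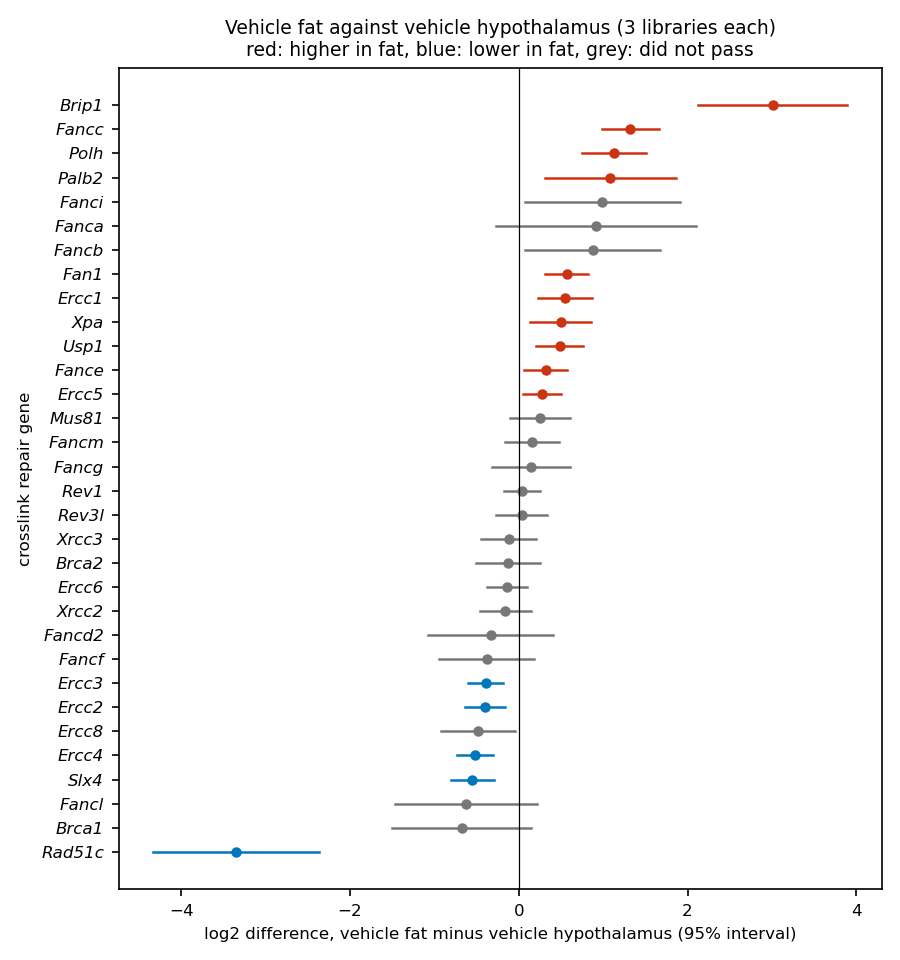
Log2 difference between vehicle fat and vehicle hypothalamus (3 libraries each) for the 32 tested members, with 95% intervals from edgeR. Red members passed the threshold and were higher in fat, blue members passed and were lower, and Rad51c at -3.35 and Brip1 at 3.01 lie at the ends.

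Other genes of the same pathways were followed in 3 lists. Of 25 further Fanconi and recombination genes, muscle had 22 tested, fat 24 and hypothalamus 23, and edgeR called 0 in each. Over all genes it called 0.163%, 0% and 0.148%. At an unadjusted p under 0.05, 0, 3 and 1 of the list were higher and 0 lower. Of all genes, 4.80%, 13.4% and 6.20% were higher at that p, and 4.79%, 12.7% and 4.00% lower. In fat Dclre1b, the nuclease Apollo that trims crosslinked ends, averaged 28.2 ± 9.54 (SD, n = 4) CPM with oxaliplatin and 11.5 ± 1.73 (SD, n = 3) with vehicle, apart, at 1.30 ± 0.31 (SE, edgeR adjusted p = 0.114). It was at 0.43 ± 0.16 (SE, edgeR adjusted p = 0.439) in hypothalamus, also apart. Of all genes, 10.3% in fat and 5.58% in hypothalamus were apart and higher. Blm, a helicase of recombination, was at 0.65 ± 0.21 (SE) in fat.

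Of 20 further excision repair genes all were tested in each tissue and 0 were called by edgeR, beside the called shares of all genes given above. In fat 2 were higher and 2 lower at an unadjusted p under 0.05: Uvssa, a partner of ERCC6, at 0.88 ± 0.28 (SE), Ddb2, a damage sensor, at 0.80 ± 0.27 (SE), and the TFIIH-linked Mnat1 at -0.39 ± 0.12 (SE) and Gtf2h4 at -0.50 ± 0.17 (SE). In hypothalamus 2 were higher and 0 lower, with Uvssa at 0.55 ± 0.18 (SE), and in muscle 0 were higher or lower. The shares of all genes at that p were 13.4% higher and 12.7% lower in fat, 6.20% and 4.00% in hypothalamus, and 4.80% and 4.79% in muscle. Of 5 further bypass genes 0 were called, and Rad18, the ligase that ubiquitinates the replication clamp PCNA, averaged 11.9 ± 4.00 (SD, n = 4) CPM with oxaliplatin in fat and 23.8 ± 1.65 (SD, n = 3) with vehicle, apart, at -1.004 ± 0.25 (SE, edgeR adjusted p = 0.114). In fat 11.2% of all genes were apart and lower.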

How the data were processed

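Values deposited by the authors are expected counts, 1 table a tissue, with no scaling between libraries. Of the values 41.4% to 49.1% were not whole, where the plan had allowed for counts, and all were rounded first. The submitters' processing notes name STAR 2.5.1a, Partek and DESeq2 without roles, and no source used here gives the genome build or strand setting. Gene starts equalled GENCODE M21 (GRCm38) for all 34 members, and 17 of the 34 share exon sequence with another gene. Low genes were dropped with filterByExpr at its count minimum of 10 and total of 15, and the rest were tested per tissue with edgeR 4.0.16 (TMM, quasi-likelihood F test, Benjamini-Hochberg over all tested genes, threshold 0.05). CPM values are divided by the TMM factors. The standard error is the log2 fold change divided by the square root of F. Intervals are 95% intervals. DESeq2 1.42.0, limma 3.58.1, other factors and filters, a mouse-number block and each library left out were alternatives. The tests were tried on simulated data. Members and lists were chosen with earlier results of these data known. Named are the 6 members of smallest p per tissue, members with arms apart, called members and up to 4 genes per further list. Total counts set the counting precision, and limits for a count of 0 (3 counts) cover counting error only.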

Additional observations from a re-analysis of the deposited data

Results flagged for a closer look

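Each member was examined in each group of 4 or more libraries for a single library far from the others, by Dixon's ratio of the gap to the range, in 116 groups. Of these 8 stood out, where chance flags about 1 in 20 groups, that is 5.8. In fat, oxaliplatin mouse 5 gave 3 of them: Brca1 at 7.94 CPM (others 0.487 to 0.962), Brip1 at 5.47 CPM (others 0.721 to 1.14) and, on the low side, Xrcc3 at 15.1 CPM (others 21.5 to 22.1). In muscle, vehicle mouse 3 gave 2: Ercc2 at 7.48 CPM (others 5.70 to 5.95) and, low, Ercc3 at 3.74 CPM (others 6.02 to 6.48), a pair of TFIIH helicases in opposite directions. Fan1 in muscle oxaliplatin mouse 2 was low at 1.87 CPM (others 3.30 to 3.77), and Polh in muscle oxaliplatin mouse 4 was high at 8.65 CPM (others 7.22 to 7.46). Usp1 in hypothalamus oxaliplatin mouse 2 was high at 21.4 CPM (others 18.1 to 18.2).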

How the results depend on the processing

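Of 769 values under the alternatives, for the 6 members of smallest p in each tissue and in each difference between tissues and the 10 with the widest called vehicle differences, 736 kept their direction and their side of the threshold, 29 passed it newly, 4 lost it (Palb2 between vehicle fat and hypothalamus) and 0 changed direction. Ercc5, Fance and Xpa, called in that comparison but not among those 10, lost the call in 9, 8 and 5 of 11 alternatives. Counts of called members in fat went from 0 to 4 with DESeq2 (12.2% of all genes) and 6 with limma-voom quality weights (25.6%). They were 5 in a fit over all tissues (15.7%) and 4 without vehicle mouse 4 and oxaliplatin mouse 5 (20.1%). With each library left out they ranged from 0 to 5, the 5 beside 25.5% of all genes. For fat minus hypothalamus they went from 0 to 3 with DESeq2 (6.09% of all genes) and 1 with the mouse as a random effect (1.26%). With each library left out they ranged from 0 to 3, the 3 beside 15.2% of all genes. With each library left out the count stayed 0 in muscle and hypothalamus alone and in the other differences between tissues. Between vehicle fat and hypothalamus it was then 11 to 18, beside 63.8% to 72.7% of all genes. The mouse number as a replicate block gave 0 called members in muscle, fat and hypothalamus, beside 0.0204%, 0% and 0.195% of all genes. It gave 13 between vehicle fat and hypothalamus, beside 68.6% of all genes. The main fits did not pair libraries by number. Between the arms, where numbers name different mice, deviations of same-numbered libraries correlated at -0.177 to 0.174 in muscle, -0.280 and -0.177 in fat, and -0.011 and 0.032 in hypothalamus. Between vehicle fat and hypothalamus, where a shared number can mean a shared mouse, same-numbered libraries correlated at 0.011 to 0.041. Differently numbered ones correlated at -0.029 to 0.004 there. These small values do not settle whether the libraries are paired. With muscle mouse 5 counted as vehicle, 0 members and 0 of 14737 genes were called. Groups of 3 to 5 libraries and counts under 30, as for Rad51c in fat, limit what could be detected, and muscle had 8 members too low to test, hypothalamus 3 and fat 1.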
